A study of Mus musculus with 6 samples.

Results

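Transcripts of 45 genes of fatty acid synthesis and breakdown were followed in neurospheres of mice, some labelled cKO, for a conditional knockout of Slc22a17, and others labelled wild type (WT). The 45 genes, out of 14327 in the table, were chosen by symbol: enzymes that build, desaturate, elongate, activate and burn long-chain fatty acids, with a few carriers, lipases and regulators. All 45 were present, and 43 had a mean of at least 1 FPKM over the 6 libraries and were tested. Acacb and Mlxipl were below that level. FPKM divides a gene's fragments by its transcript length and by the mapped total, so levels of different genes are compared per length.

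Neurospheres are floating balls of neural stem and progenitor cells. These were grown from hippocampi of pups at postnatal day 0, in DMEM-F12 with the supplements B27 and N2 and the growth factors EGF and bFGF. There were 3 libraries labelled cKO and 3 labelled WT, each of total RNA. Neither strain nor sex, nor the Cre driver or the floxed exons, is given in the sources used here. Nor do the labels say whether libraries of a group came from separate animals or cultures, and a p-value here therefore weighs a difference only against library-to-library spread, part or all of which may be technical.

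Slc22a17 itself, which encodes a receptor for the iron-carrying protein lipocalin 2, stood at 164, 166 and 187 FPKM in cKO replicates 1 to 3, against 181, 169 and 204 FPKM in WT replicates 1 to 3. For Slc22a17 the log2 fold change was -0.10, SE 0.086, 95% interval -0.29 to 0.10, limma adjusted p = 0.707. By this gene-level value the transcript was thus not lost from the libraries labelled cKO, but such a value cannot show whether single exons were removed. Every difference here is one between the libraries labelled cKO and WT, called so by their labels throughout. The Y-linked transcripts Ddx3y and Eif2s3y summed to 50.5, 43.8 and 51.2 FPKM in cKO replicates 1 to 3, against 0.10, 0.07 and 25.9 FPKM in WT replicates 1 to 3. Effects of the sex of the pups therefore cannot be told apart from those of the label. WT replicate 3 alone was also used as the WT group, but it lay below every cKO library and is not a matched control. Markers of neural stem cells were abundant, with the 12 listed genes summing to 3683 to 3998 FPKM in cKO and 3992 to 4196 FPKM in WT, while 0 of 6 adipocyte markers were among the genes analysed here and 8 microglial markers summed to 6.93 to 17.2 FPKM in cKO and 12.6 to 13.9 FPKM in WT. Other companions differed more between the groups. The 9 astrocyte markers summed to 5543 to 5903 FPKM in cKO and 4133 to 5451 FPKM in WT, and the 9 markers of the oligodendrocyte lineage to 527 to 549.6 FPKM in cKO and 593 to 660 FPKM in WT. The 16 mitosis genes summed to 248.9 to 344 FPKM in cKO and 361 to 453 FPKM in WT, and 16 genes induced by hypoxia to 1353 to 1840 FPKM in cKO and 1458 to 2524 FPKM in WT. In such bulk RNA fewer cells of a type and less RNA per cell cannot be told apart.

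Cells make fatty acids in the cytosol from citrate-derived acetyl-CoA and burn them in mitochondria. ATP citrate lyase supplies acetyl-CoA, acetyl-CoA carboxylase turns it into malonyl-CoA, and fatty acid synthase assembles palmitate, which desaturases and elongases in the endoplasmic reticulum then modify. For oxidation a fatty acid is activated to its CoA ester, passed through the mitochondrial membranes as a carnitine ester, and shortened stepwise by dehydrogenation, hydration, a further dehydrogenation and thiolysis. Malonyl-CoA blocks the entry step, so that synthesis and oxidation oppose each other. Neural stem cells are known to depend on both arms: synthesis for membranes during proliferation, and oxidation in quiescence.

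None of the 43 tested members passed an adjusted p of 0.05 in limma, a threshold that 0.0259% of all 11596 tested genes passed (0.00862% higher and 0.0172% lower in cKO). At an unadjusted p under 0.05 there were 2 members, Acsl6 and Fads1, both higher in cKO, against a background of 12.3% of all tested genes. Values of the groups did not overlap for 5 members, which is 11.6% of the 43, against 17.2% of all tested genes. All 5 (Acsl6, Fads1, Fads2, Scd1 and Scd2, the last of which turned sign with quantile normalization) were higher in cKO, a direction in which 7.07% of all tested genes did not overlap; the opposite direction held 10.2% of all genes and 0 members. Means were higher in cKO for 29 members and lower for 14, and their median log2 fold change was 0.035, while 44.5% of all tested genes had higher means and their median was -0.015. This tilt moved with single libraries: without cKO replicate 3 the median was 0.0014 with 22 members higher, without cKO replicate 2 it was 0.015 with 24 higher, and without cKO replicate 1 it was 0.071 with 34 higher. The members spread within groups about as other genes did, with a median SD of 0.097 on the log2 scale against 0.098 over all tested genes.

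**Figure D1:**
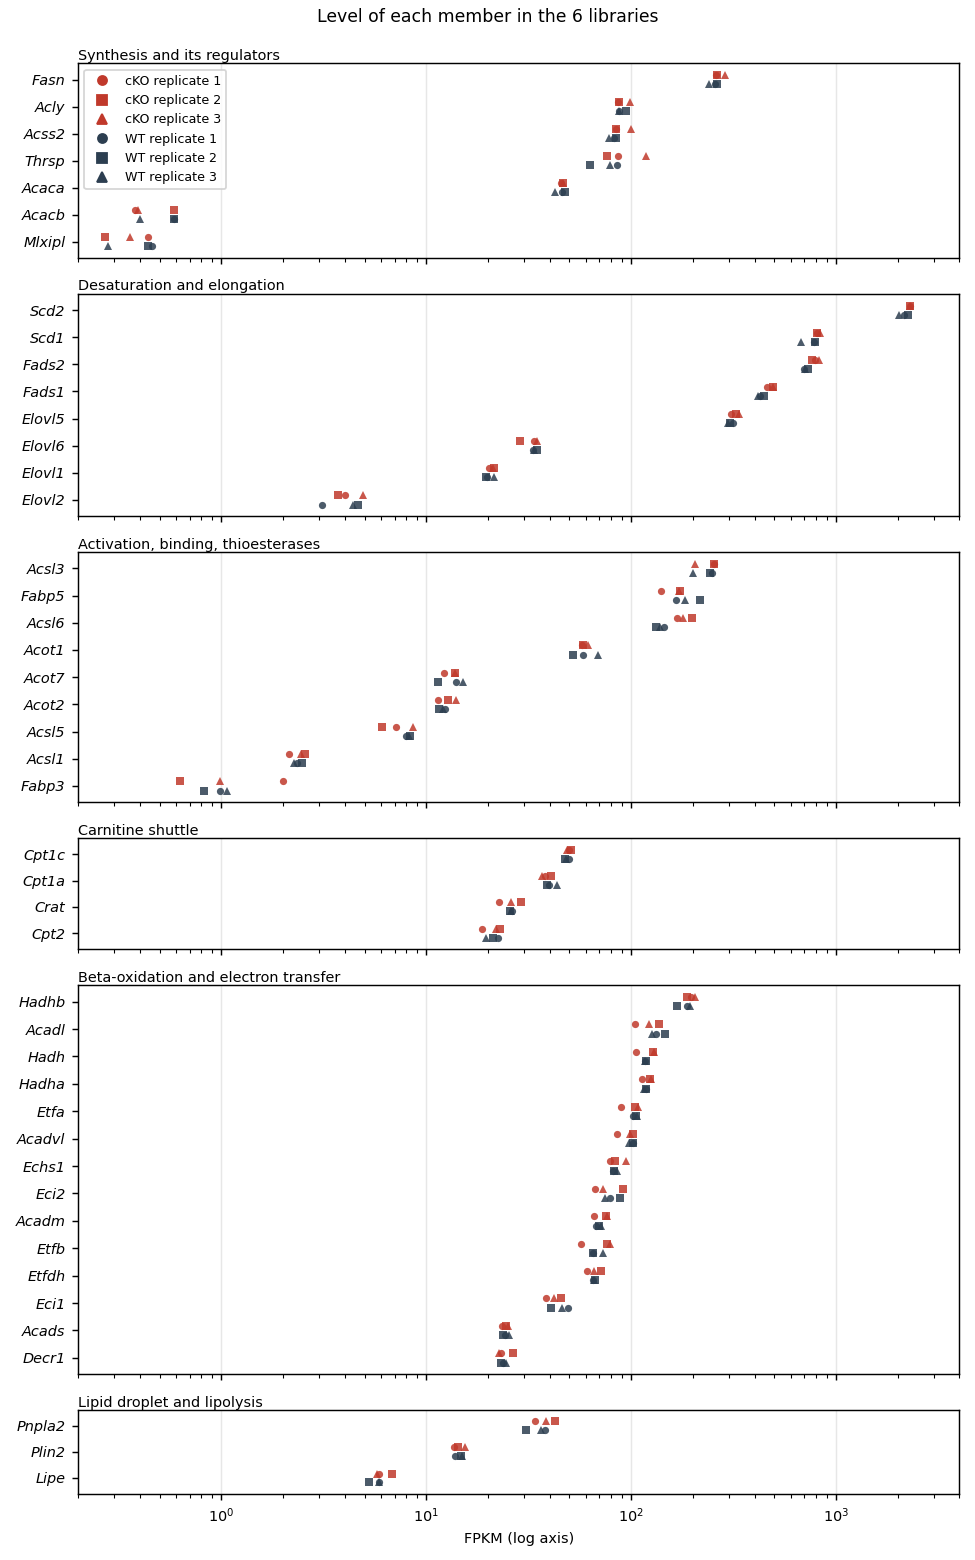
FPKM of the 45 members on a log axis, in panels by role, with the 3 libraries labelled cKO (red) drawn above the 3 WT libraries (dark) for each gene. Levels ran from under 1 FPKM for Mlxipl and Acacb to a mean of 2211 FPKM for Scd2, and for most genes the 6 libraries fell close together relative to this range.

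Synthesis enzymes were well expressed and overlapped between groups: all 5 tested members had slightly higher means in cKO, none passed, and the median log2 fold change was 0.087. That median was 0.043 without cKO replicate 3 and 0.049 without WT replicate 3. Fatty acid synthase (Fasn; GRCm38 chromosome 11, 120805958 to 120825166), which builds palmitate, had 258, 263 and 286 FPKM in cKO replicates 1 to 3, against 256, 263 and 240.0 FPKM in WT replicates 1 to 3. Its values overlapped between groups, with cKO replicate 3 the highest and WT replicate 3 the lowest (log2 fold change 0.087, SE 0.069, 95% interval -0.07 to 0.24, limma adjusted p = 0.662). Acetyl-CoA synthetase 2 (Acss2), which makes acetyl-CoA from acetate, had 84.4, 84.8 and 99.5 FPKM in cKO replicates 1 to 3, against 82.5, 84.8 and 78.00 FPKM in WT replicates 1 to 3. Again cKO replicate 3 was highest while cKO replicates 1 and 2 lay level with WT replicate 2 (log2 fold change 0.13, SE 0.076, 95% interval -0.047 to 0.30, limma adjusted p = 0.548). Thrsp, a small nuclear protein induced with lipogenesis in liver and fat, varied most, with 86.2, 76.3 and 118 FPKM in cKO replicates 1 to 3, against 85.2, 62.8 and 78.7 FPKM in WT replicates 1 to 3. The highest and lowest were cKO replicate 3 and WT replicate 2, and cKO replicate 2 lay below the other WT libraries (log2 fold change 0.29, SE 0.16, 95% interval -0.083 to 0.66, limma adjusted p = 0.512). Without cKO replicate 3 the log2 fold change was 0.11, and without WT replicate 2 it was 0.16.

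The enzymes that feed fatty acid synthase overlapped between groups. ATP citrate lyase (Acly) was at 86.5, 87.2 and 98.9 FPKM in cKO replicates 1 to 3, against 87.4, 94.4 and 86.8 FPKM in WT replicates 1 to 3. Its lowest and highest values were both in cKO, in replicates 1 and 3 (log2 fold change 0.019, SE 0.07, 95% interval -0.14 to 0.18, limma adjusted p = 0.945). Acetyl-CoA carboxylase 1 (Acaca), the cytosolic form that supplies synthesis, was at 45.2, 46.3 and 46.6 FPKM in cKO replicates 1 to 3, against 45.8, 47.7 and 42.6 FPKM in WT replicates 1 to 3. All cKO values lay within the WT range (log2 fold change 0.022, SE 0.059, 95% interval -0.11 to 0.16, limma adjusted p = 0.918). Its mitochondrial-surface counterpart Acacb, whose malonyl-CoA restrains carnitine palmitoyltransferase 1, was at only 0.38, 0.59 and 0.39 FPKM in cKO replicates 1 to 3, against 0.59, 0.59 and 0.40 FPKM in WT replicates 1 to 3. The ratio of Acacb to Acaca was thus 0.0084, 0.0127 and 0.0084 in cKO replicates 1 to 3, against 0.0129, 0.0124 and 0.0094 in WT replicates 1 to 3 (exact two-sided permutation p = 0.3 for the log2 ratio, where 0.1 is the smallest that 3 against 3 can give). Ratios of 6 family pairs were compared in this way, and adjusted over the 6 pairs the exact p-values were 0.6 to 0.9. Mlxipl, the carbohydrate response factor ChREBP, was also near the lower end, with 0.44, 0.27 and 0.36 FPKM in cKO replicates 1 to 3, against 0.46, 0.44 and 0.28 FPKM in WT replicates 1 to 3. Without WT replicate 3 the log2 fold changes of Acly and Acaca turned sign, at -0.0024 and -0.021. Of the 50-base stretches of the longest Acaca transcript 52.6% also occur in transcripts of the predicted gene Gm5182, so the level of Acaca depends on how the authors assigned such reads.

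**Figure D2:**
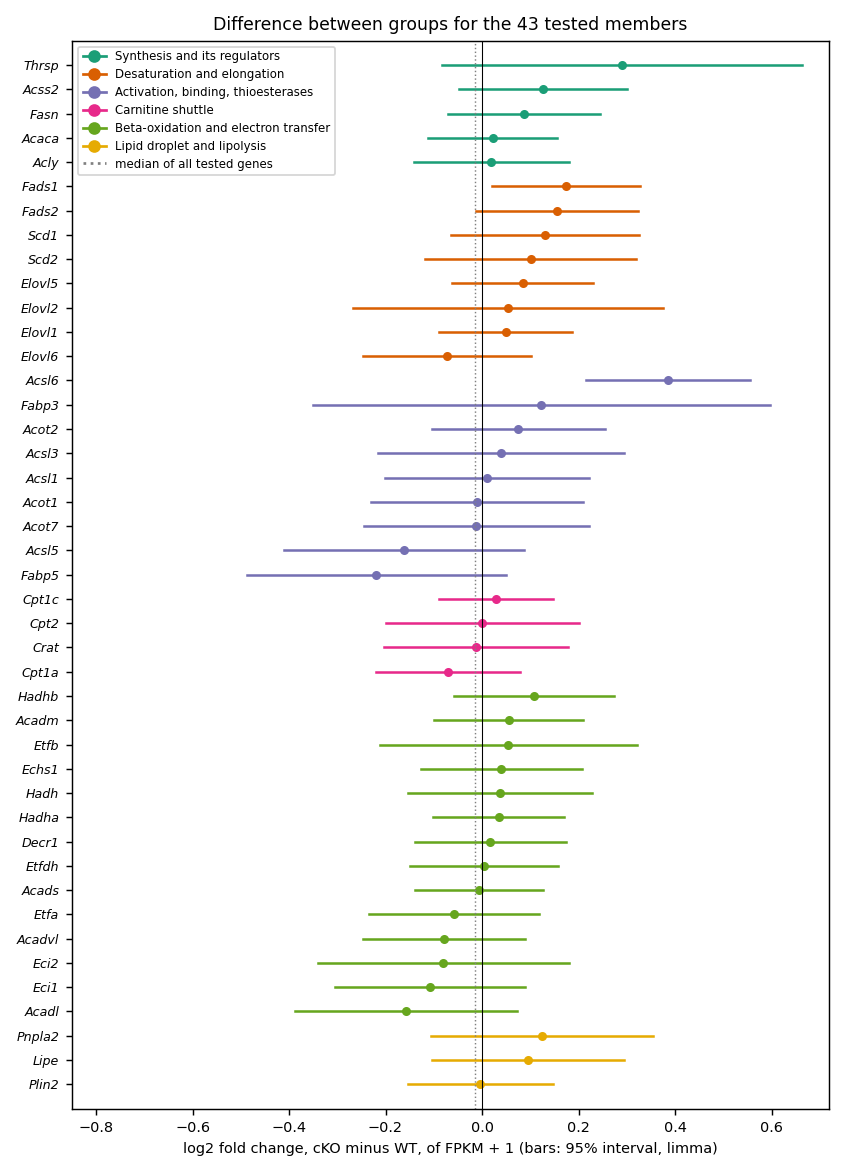
Log2 fold change (cKO minus WT) of the 43 tested members with its 95% interval from limma, coloured by role, on the log2(FPKM + 1) scale; the dotted line is the median of all tested genes, -0.015. The intervals of Acsl6 and Fads1 lie above 0 and the other 41 include it.

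The promoter of Fasn is shown because its enzyme builds palmitate. RefSeq windows of 300 bases (GRCm38.p6, 250 before to 50 after a start site) were listed for 39 of the 45 members, 46 windows in all; Scd1, Scd2, Fads1, Fabp5, Crat and Decr1 had none. Both strands were searched for a core of the sterol response element, TCACNCCAC, the NF-Y box CCAAT, the Sp1 box GGGCGG and the E-box CACGTG, none of which contains another. Capitals mark every match. The Fasn window lies at chr11:120824498-120824797 on the minus strand. This is inside the gene span given above, which reaches 120825166, so the upstream end of that span is not covered.
Fasn: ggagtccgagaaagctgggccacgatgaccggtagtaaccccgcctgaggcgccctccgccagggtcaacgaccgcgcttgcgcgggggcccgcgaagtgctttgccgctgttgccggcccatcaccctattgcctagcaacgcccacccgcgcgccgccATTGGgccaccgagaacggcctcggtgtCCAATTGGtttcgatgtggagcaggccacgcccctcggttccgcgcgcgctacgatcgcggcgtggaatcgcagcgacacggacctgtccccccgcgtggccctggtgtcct
It holds 3 NF-Y boxes, which start 90, 62 and 59 bases before the start site, the last 2 of them overlapping. NF-Y boxes were in 37.4% of all 32851 windows and in 23 of the 46 member windows. The Sp1 box was in 35.7% of all windows and in 30 of the 46. The E-box was in 7.15% of all windows and in 4 of the 46 (Elovl5, Lipe, Mlxipl and Plin2), and the sterol core in 1.24% and in 2 (Acsl1 and Mlxipl). A match is only a match of letters.

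Desaturases were the most abundant transcripts of the set, and all 4 had higher values in each library labelled cKO than in any WT library, with means at 107% to 113% of WT. Such values, higher without overlap, were found for 7.07% of all tested genes. None of the 4 passed in limma, and for Scd2 the sign turned with quantile normalization. Stearoyl-CoA desaturases place the first double bond into saturated chains and make oleate and palmitoleate. Scd2 (chromosome 19, 44293676 to 44306864), the form known to prevail in brain, ranked 11 of 14327 genes by mean FPKM. It had 2286, 2294 and 2285 FPKM in cKO replicates 1 to 3, against 2146, 2235 and 2023 FPKM in WT replicates 1 to 3. The libraries labelled cKO lay within 10 FPKM of each other, and the WT libraries spread below them (log2 fold change 0.10, SE 0.10, 95% interval -0.12 to 0.32, limma adjusted p = 0.723; -0.086 with quantile normalization). Scd1 (chromosome 19, 44394450 to 44407709) ranked 42, with 811, 806 and 835 FPKM in cKO replicates 1 to 3, against 781, 786 and 677 FPKM in WT replicates 1 to 3 (log2 fold change 0.13, SE 0.085, 95% interval -0.064 to 0.33, limma adjusted p = 0.58). Here WT replicate 3 stood apart from the other WT libraries, and WT replicates 1 and 2 came close to cKO (log2 fold change 0.061 without WT replicate 3). Scd1 stood at 0.355, 0.351 and 0.365 of Scd2 in cKO replicates 1 to 3, against 0.364, 0.352 and 0.335 in WT replicates 1 to 3, so that the balance of the isoforms overlapped (exact two-sided permutation p = 0.5).

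Fads1 and Fads2, the delta-5 and delta-6 desaturases that make arachidonate and docosahexaenoate from dietary precursors, ranked 108 and 46. Fads1 (chromosome 19, 10182877 to 10196874) had 463, 490.4 and 494 FPKM in cKO replicates 1 to 3, against 424, 443 and 417 FPKM in WT replicates 1 to 3. The lowest cKO library was above the highest WT library (482 ± 17.2 FPKM in cKO and 428 ± 13.4 FPKM in WT, SD, n = 3 each; log2 fold change 0.17, SE 0.067, 95% interval 0.02 to 0.33, limma adjusted p = 0.353; exact permutation p = 0.1, the smallest possible). Fads2 (chromosome 19, 10062765 to 10101503) had 792, 761 and 821 FPKM in cKO replicates 1 to 3, against 696, 728 and 708 FPKM in WT replicates 1 to 3. Again the lowest cKO library was above the highest WT library (log2 fold change 0.16, SE 0.073, 95% interval -0.012 to 0.32, limma adjusted p = 0.443). Over the 12 alternatives the log2 fold change stayed between 0.15 and 0.24 for Fads1 and between 0.087 and 0.19 for Fads2, and against WT replicate 3 alone it was 0.21 for Fads1 and 0.16 for Fads2. All 4 desaturase genes lie on chromosome 19, where Fads2 and Fads1 are 81373 bases apart and Scd2 and Scd1 87585 bases. Of the 9 astrocyte markers 7 had higher means in cKO and none passed, their sums did not overlap between groups, and their part in these values and in those of Acsl6 was not tested.

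The Fads2 promoter is shown as the only desaturase window listed, at chr19:10101454-10101753 on the minus strand.
Fads2: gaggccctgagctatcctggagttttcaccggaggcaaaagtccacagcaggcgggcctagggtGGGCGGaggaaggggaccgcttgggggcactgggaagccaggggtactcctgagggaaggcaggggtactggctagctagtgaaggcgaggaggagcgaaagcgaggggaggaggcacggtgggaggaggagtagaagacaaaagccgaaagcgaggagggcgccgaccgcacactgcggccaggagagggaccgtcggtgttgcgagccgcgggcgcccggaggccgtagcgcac
It holds a single Sp1 box, 186 bases before the start site, and none of the other 3 motifs.

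Elongases, which add carbons in the same membrane, overlapped between groups in all 4 cases. Elovl5, which lengthens polyunsaturated chains, was the most abundant at 309, 325 and 336 FPKM in cKO replicates 1 to 3, against 314, 302 and 297 FPKM in WT replicates 1 to 3. Its cKO replicate 1 was inside the WT range (log2 fold change 0.084, SE 0.064, 95% interval -0.062 to 0.23, limma adjusted p = 0.646). Elovl6, which takes palmitate to stearate, was the only member of this role with a lower mean in cKO, 32.3 ± 3.20 FPKM in cKO and 33.9 ± 0.85 FPKM in WT (SD, n = 3 each), and its sign turned without cKO replicate 2 (log2 fold change 0.0091). Elovl6 stood at 0.109, 0.0882 and 0.103 of Elovl5 in cKO replicates 1 to 3, against 0.106, 0.115 and 0.113 in WT replicates 1 to 3 (exact permutation p = 0.2). Elovl1, which serves very long saturated chains, averaged 21.01 ± 0.61 FPKM in cKO and 20.3 ± 1.05 FPKM in WT (SD, n = 3 each). Elovl2, which lengthens polyunsaturated chains on the way to docosahexaenoate, averaged 4.22 ± 0.63 FPKM in cKO and 4.05 ± 0.84 FPKM in WT (SD, n = 3 each). Over the 8 desaturases and elongases the median log2 fold change was 0.093, and it was 0.14 against WT replicate 3 alone and 0.14 without WT replicate 2.

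**Figure D3:**
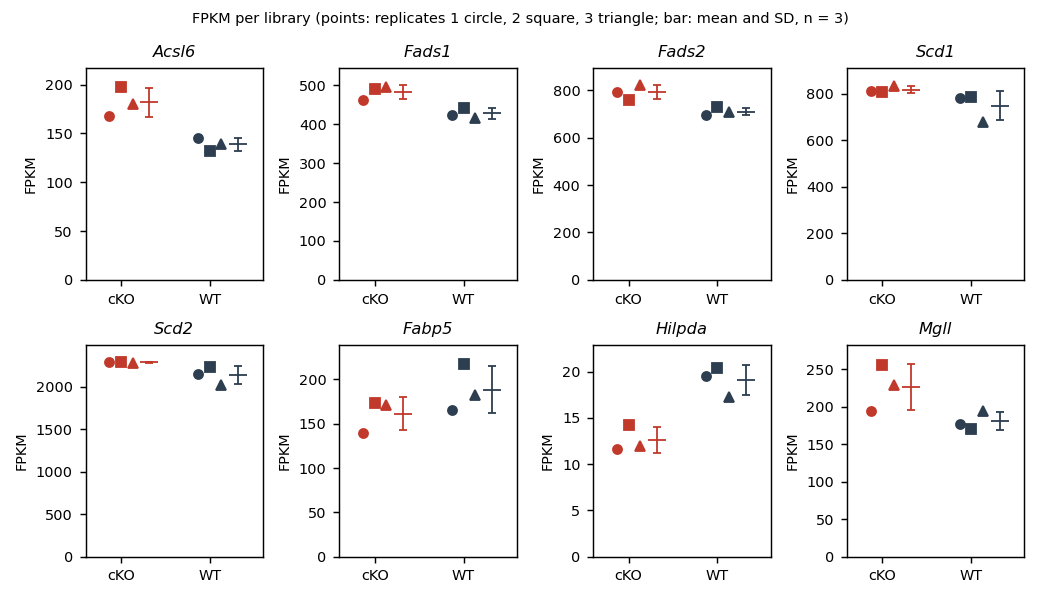
FPKM per library for 6 members and for Hilpda and Mgll, with the libraries labelled cKO left of WT, mean and SD (n = 3) beside the points, and axes from 0. Groups do not overlap for Acsl6, Fads1, Fads2, Scd1 and Scd2 (cKO higher; for Scd2 the log2 fold change was -0.086 with quantile normalization) and for Hilpda (cKO lower), and they overlap for Fabp5 and Mgll.

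Among genes that activate or bind fatty acids, the acyl-CoA synthetase Acsl6 stood out. Acsl6 (chromosome 11, 54303805 to 54364756), which loads CoA onto long chains and is known in brain for enriching docosahexaenoate in phospholipids, had 168, 198 and 179.8 FPKM in cKO replicates 1 to 3, against 145, 132 and 139 FPKM in WT replicates 1 to 3. Each library labelled cKO was above all WT libraries. The means were 182 ± 14.8 FPKM in cKO and 139 ± 6.55 FPKM in WT (SD, n = 3 each), 131% of WT (log2 fold change 0.39, SE 0.074, 95% interval 0.22 to 0.56, limma adjusted p = 0.176; exact permutation p = 0.1). This was the lowest p of the 43 members and still missed the threshold. It passed with library weights (log2 fold change 0.34, limma adjusted p = 0.0423). In that setting 129 of all tested genes passed, against 3 in the comparison as reported. Over the 12 alternatives the log2 fold change of Acsl6 was 0.32 to 0.44. Its limma adjusted p was 0.0423 to 0.472 in those with at least 2 libraries in each group. Against WT replicate 3 alone the log2 fold change was 0.38. In that setting the spread comes from the cKO libraries alone and no gene passed, so its p-values are given for no gene.

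Its relatives overlapped between groups. Acsl3, the synthetase of endoplasmic reticulum and lipid droplets, was the most abundant of the 4 synthetases at 254, 253 and 205 FPKM in cKO replicates 1 to 3, against 248, 244 and 201 FPKM in WT replicates 1 to 3. Replicate 3 was low in both groups (log2 fold change 0.039, SE 0.11, 95% interval -0.22 to 0.29, limma adjusted p = 0.923). Acsl5, a mitochondrial and reticular form, was at 7.13, 6.08 and 8.64 FPKM in cKO replicates 1 to 3, against 7.97, 8.35 and 8.27 FPKM in WT replicates 1 to 3. Its cKO replicates 1 and 2 lay below all WT libraries and cKO replicate 3 above them (log2 fold change -0.16, SE 0.11, 95% interval -0.41 to 0.086, limma adjusted p = 0.596). It was -0.055 without cKO replicate 2 and -0.28 without cKO replicate 3. Acsl1, the chief form of heart, fat and liver, was scarce here at 2.38 ± 0.22 FPKM in cKO and 2.36 ± 0.12 FPKM in WT (SD, n = 3 each). Of these 4 synthetases Acsl6 was thus the only one whose groups did not overlap. No 50-base stretch of its longest transcript occurs in a transcript of another gene. RefSeq lists 3 start sites for Acsl6, and the window of the middle site, at chr11:54303954-54304253 on the plus strand, is shown as that of the member with the lowest p.
Acsl6: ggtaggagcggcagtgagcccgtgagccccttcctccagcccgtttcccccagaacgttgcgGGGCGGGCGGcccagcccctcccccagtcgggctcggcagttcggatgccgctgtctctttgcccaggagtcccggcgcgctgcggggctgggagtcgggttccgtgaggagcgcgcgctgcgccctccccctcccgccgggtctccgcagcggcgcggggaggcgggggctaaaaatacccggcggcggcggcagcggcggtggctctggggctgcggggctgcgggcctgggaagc
Its 2 Sp1 boxes overlap, starting 188 and 184 bases before the start site, and none of the other 3 motifs is in this window.

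Fatty acid-binding proteins ferry chains through the cytosol. Fabp5, an epidermal and neural form, had 139.7, 173 and 171 FPKM in cKO replicates 1 to 3, against 165, 217 and 182 FPKM in WT replicates 1 to 3. Values overlapped, with cKO replicate 1 lowest and WT replicate 2 highest (log2 fold change -0.22, SE 0.12, 95% interval -0.49 to 0.049, limma adjusted p = 0.49). The log2 fold change was -0.12 without cKO replicate 1, -0.11 without WT replicate 2 and -0.055 with library weights. Fabp3, the heart form, was barely above the filter at 2.00, 0.63 and 0.98 FPKM in cKO replicates 1 to 3, against 0.99, 0.82 and 1.07 FPKM in WT replicates 1 to 3. Only cKO replicate 1 was well above the others (log2 fold change 0.12, SE 0.21, 95% interval -0.35 to 0.60, limma adjusted p = 0.861), and without that library the sign turned (log2 fold change -0.12). Fabp5 exceeded Fabp3 by 69.8, 275 and 174 times in cKO replicates 1 to 3, against 167, 265 and 170.4 times in WT replicates 1 to 3 (exact permutation p = 0.9). Of the 50-base stretches of the longest transcript 21.1% of Fabp5 and 29.2% of Fabp3 also occur in transcripts of other genes, so both levels are uncertain. A binding protein outside the members, Fabp7, was more abundant than either, at a mean of 1994 FPKM over all libraries, and its groups overlapped.

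Thioesterases undo activation. Acot1, the cytosolic form, and Acot2, its mitochondrial neighbour 15624 bases away on chromosome 12, share 23.7% of the 50-base stretches of the longest Acot1 transcript, so reads can be split between them. Acot2 was at 11.4, 12.8 and 13.9 FPKM in cKO replicates 1 to 3, against 12.3, 11.6 and 12.1 FPKM in WT replicates 1 to 3. Its lowest and highest values were both in cKO (log2 fold change 0.075, SE 0.078, 95% interval -0.10 to 0.25, limma adjusted p = 0.757). Acot1 averaged 59.05 ± 2.14 FPKM in cKO and 59.8 ± 8.64 FPKM in WT (SD, n = 3 each). The ratio of Acot1 to Acot2 was 5.01, 4.56 and 4.42 in cKO replicates 1 to 3, against 4.73, 4.50 and 5.73 in WT replicates 1 to 3 (exact permutation p = 0.6). Acot7, the main neuronal acyl-CoA thioesterase, averaged 13.3 ± 0.95 FPKM in cKO and 13.5 ± 1.89 FPKM in WT (SD, n = 3 each).

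All 4 genes of the carnitine shuttle overlapped between groups, and the median log2 fold change was -0.0057, or 0.051 without cKO replicate 1 and -0.076 without cKO replicate 2. Cpt1a, the outer-membrane enzyme that malonyl-CoA inhibits and that limits oxidation, had 38.2, 40.8 and 36.8 FPKM in cKO replicates 1 to 3, against 39.5, 38.9 and 43.2 FPKM in WT replicates 1 to 3. Values overlapped, cKO replicates 1 and 3 being lowest (log2 fold change -0.07, SE 0.065, 95% interval -0.22 to 0.079, limma adjusted p = 0.72). Cpt1c, the brain form of the endoplasmic reticulum with little such activity, had 49.7, 50.6 and 48.4 FPKM in cKO replicates 1 to 3, against 49.97, 47.6 and 48.2 FPKM in WT replicates 1 to 3. All 6 libraries lay close together (log2 fold change 0.029, SE 0.052, 95% interval -0.089 to 0.15, limma adjusted p = 0.868). Cpt1c exceeded Cpt1a in every library, by 1.30, 1.24 and 1.32 times in cKO replicates 1 to 3, against 1.26, 1.22 and 1.11 times in WT replicates 1 to 3 (exact permutation p = 0.2). Crat, which buffers acetyl-CoA as acetylcarnitine, had 22.8, 28.9 and 25.9 FPKM in cKO replicates 1 to 3, against 26.2, 25.6 and 26.1 FPKM in WT replicates 1 to 3. Its WT libraries were close together while cKO replicate 1 lay below and cKO replicate 2 above them (log2 fold change -0.012, SE 0.083, 95% interval -0.20 to 0.18, limma adjusted p = 0.971). Cpt2, which restores the CoA ester inside the mitochondrion, averaged 21.2 ± 2.27 FPKM in cKO and 21.1 ± 1.45 FPKM in WT (SD, n = 3 each).

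Beta-oxidation enzymes were moderately to highly expressed, between 24.0 and 189 FPKM on average, and none of the 14 differed between groups without overlap. The median log2 fold change was 0.011, with 8 higher and 6 lower means. The most visible feature was a library and not a group: cKO replicate 1 was the lowest of the 6 libraries for 12 of the 14 genes, all but Hadhb and Decr1, while it was lowest for 20.7% of all tested genes. Relative to the WT mean the median of the 14 genes (log2 scale) was -0.13, 0.059 and 0.041 for cKO replicates 1 to 3, against -0.013, 0.0054 and 0.027 for WT replicates 1 to 3. The same library had the lowest median for the carnitine shuttle, at -0.13, for activation and binding, at -0.064, and over all 43 members, at -0.053. For desaturation and elongation, at 0.060, it was not the lowest. Without cKO replicate 1 the median of the beta-oxidation genes was 0.052, and without cKO replicate 2 it was -0.029.

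**Figure D4:**
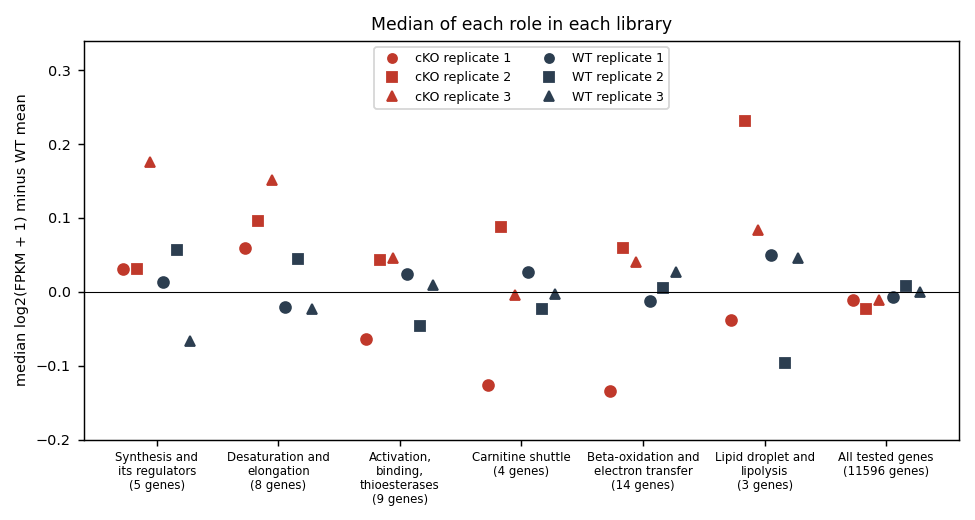
Median over the tested genes of each role of log2(FPKM + 1) minus the WT mean, for each library labelled cKO (red) and WT (dark), with all 11596 tested genes on the right. Of the 6 roles, desaturation and elongation is the one where all cKO libraries lie above all WT libraries, and cKO replicate 1 lies at -0.13 for the carnitine shuttle and for beta-oxidation.

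Acyl-CoA dehydrogenases open each round of shortening and differ in the chain length they take. Acadl, the long-chain form, had 105, 137 and 123 FPKM in cKO replicates 1 to 3, against 132, 146 and 127 FPKM in WT replicates 1 to 3. The lowest value was in cKO replicate 1 and the highest in WT replicate 2 (log2 fold change -0.16, SE 0.10, 95% interval -0.39 to 0.073, limma adjusted p = 0.573). Without cKO replicate 1 this value was -0.056, and without cKO replicate 2 it was -0.25. Acadvl, the very-long-chain form of the inner membrane, had 85.6, 102 and 98.3 FPKM in cKO replicates 1 to 3, against 102, 102 and 98.2 FPKM in WT replicates 1 to 3. Both extremes were cKO libraries, replicates 1 and 2 (log2 fold change -0.078, SE 0.073, 95% interval -0.25 to 0.09, limma adjusted p = 0.723), and without cKO replicate 1 the log2 fold change was -0.0026. Acadm, for medium chains, had 65.9, 75.1 and 75.96 FPKM in cKO replicates 1 to 3, against 67.5, 69.4 and 71.5 FPKM in WT replicates 1 to 3. For Acadm the log2 fold change was 0.055, SE 0.068, 95% interval -0.10 to 0.21, limma adjusted p = 0.8. In all 3 genes cKO replicate 1 was the lowest library, while for Acadm cKO replicates 2 and 3 lay above all WT values. Acads, for short chains, averaged 24.3 ± 0.89 FPKM in cKO and 24.5 ± 0.93 FPKM in WT (SD, n = 3 each).

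The later steps are carried by the trifunctional protein for long chains and by single enzymes for short ones. Hadhb, its thiolase subunit, had 196, 188 and 205 FPKM in cKO replicates 1 to 3, against 187, 167 and 193 FPKM in WT replicates 1 to 3. Groups overlapped, with cKO replicate 3 highest and WT replicate 2 lowest (log2 fold change 0.11, SE 0.072, 95% interval -0.058 to 0.27, limma adjusted p = 0.598). Hadha, the hydratase and dehydrogenase subunit, averaged 120.3 ± 6.43 FPKM in cKO and 117 ± 1.66 FPKM in WT (SD, n = 3 each). These genes point away from each other on chromosome 5 with 272 bases between them, and the window of Hadhb, chr5:30155003-30155302 on the plus strand, is shown because it spans most of the stretch they share.
Hadhb: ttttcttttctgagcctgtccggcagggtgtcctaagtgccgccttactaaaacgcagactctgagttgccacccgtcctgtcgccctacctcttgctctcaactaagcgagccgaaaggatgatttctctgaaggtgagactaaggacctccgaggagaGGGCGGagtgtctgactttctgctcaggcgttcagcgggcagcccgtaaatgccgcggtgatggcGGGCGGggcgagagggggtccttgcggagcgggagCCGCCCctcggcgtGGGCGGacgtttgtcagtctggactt
It holds 4 Sp1 boxes, 2 before and 2 after the start site, and none of the other 3 motifs. Of the 50-base stretches of the longest Hadhb transcript 62.4% also occur in other genes, chiefly the predicted gene Gm13910, so its level is uncertain. Echs1, the short-chain hydratase, averaged 85.7 ± 8.05 FPKM in cKO and 83.1 ± 1.90 FPKM in WT (SD, n = 3 each), and Hadh, the short-chain dehydrogenase, 121 ± 13.6 FPKM in cKO and 117 ± 1.15 FPKM in WT (SD, n = 3 each). For Hadh the SD was 13.6 FPKM in cKO and 1.15 FPKM in WT, since cKO replicate 1 lay below and cKO replicates 2 and 3 above all WT libraries.

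Unsaturated chains need auxiliary enzymes, and the acyl-CoA dehydrogenases pass their electrons to a flavoprotein. Eci1, an isomerase that shifts double bonds, had 38.6, 45.6 and 41.9 FPKM in cKO replicates 1 to 3, against 49.3, 40.8 and 46.2 FPKM in WT replicates 1 to 3. Groups overlapped, with cKO replicate 1 lowest and WT replicate 1 highest (log2 fold change -0.11, SE 0.086, 95% interval -0.31 to 0.089, limma adjusted p = 0.665). Eci2, its relative, averaged 76.7 ± 12.7 FPKM in cKO and 80.6 ± 6.63 FPKM in WT (SD, n = 3 each), and Decr1, the dienoyl-CoA reductase, 24.1 ± 1.97 FPKM in cKO and 23.8 ± 0.64 FPKM in WT (SD, n = 3 each). Etfa and Etfb, the subunits of the electron transfer flavoprotein, averaged 101 ± 9.97 FPKM in cKO and 105 ± 2.46 FPKM in WT (SD, n = 3 each) for Etfa and 70.7 ± 11.8 FPKM in cKO and 67.5 ± 4.43 FPKM in WT (SD, n = 3 each) for Etfb. Etfdh, which hands the electrons to ubiquinone, averaged 66.1 ± 5.38 FPKM in cKO and 65.7 ± 0.66 FPKM in WT (SD, n = 3 each). Of the 50-base stretches of the longest Etfb transcript 67.3% also occur in the predicted gene Gm45233, so the level of Etfb is uncertain.

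Droplet and lipolysis genes did not separate the groups. Plin2, the coat protein of lipid droplets, had 13.7, 14.3 and 15.4 FPKM in cKO replicates 1 to 3, against 13.8, 14.7 and 14.9 FPKM in WT replicates 1 to 3. Its lowest and highest values were cKO replicates 1 and 3 (log2 fold change -0.0033, SE 0.066, 95% interval -0.15 to 0.15, limma adjusted p = 0.991). Pnpla2, the triglyceride lipase ATGL, had 33.99, 42.5 and 38.5 FPKM in cKO replicates 1 to 3, against 38.1, 30.8 and 36.3 FPKM in WT replicates 1 to 3. For Pnpla2 the log2 fold change was 0.12, SE 0.10, 95% interval -0.11 to 0.35, limma adjusted p = 0.671. Lipe, the hormone-sensitive lipase, had 5.89, 6.83 and 5.72 FPKM in cKO replicates 1 to 3, against 5.91, 5.24 and 5.89 FPKM in WT replicates 1 to 3. For Lipe the log2 fold change was 0.10, SE 0.087, 95% interval -0.10 to 0.30, limma adjusted p = 0.714. For both lipases cKO replicate 2 was highest and WT replicate 2 lowest.

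The wider pathway gave a similar picture, in 90 further list entries of which 86 were in the table and 76 were tested. None passed in limma, 7 were higher and 4 lower at an unadjusted p under 0.05 (4.44% and 7.82% of all tested genes), and 50 means were higher and 26 lower, the median log2 fold change being 0.035. Groups did not overlap for 11 of the 76, or 14.5% (8 higher and 3 lower in cKO), against 17.2% of all tested genes, 7.07% higher and 10.2% lower. The lowest p belonged to Hilpda, a droplet protein that inhibits ATGL. Hilpda had 11.6, 14.2 and 12.01 FPKM in cKO replicates 1 to 3, against 19.5, 20.4 and 17.2 FPKM in WT replicates 1 to 3. The groups did not overlap, and cKO stood at 66.2% of the WT mean (log2 fold change -0.56, SE 0.092, 95% interval -0.77 to -0.35, limma adjusted p = 0.126). It passed with library weights (limma adjusted p = 0.0247), where 129 of all tested genes passed. It also passed with the replicate number as a block (limma adjusted p = 0.0396), where 22 of all tested genes passed. Over the alternatives with at least 2 libraries in each group its limma adjusted p was 0.0247 to 0.472. Hilpda is also one of the 16 tested hypoxia genes, all of which had lower means in cKO. Their median log2 fold change was -0.46, against -0.015 over all tested genes, and none passed in limma. The sums of hypoxia genes were highest in WT replicates 1 and 2, and that of WT replicate 3 lay within the cKO range. The part of hypoxia in the Hilpda values was not tested.

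Other storage and lipid uptake genes went both ways. Lpl, the lipase that releases fatty acids from lipoproteins, had 1.97, 1.95 and 1.80 FPKM in cKO replicates 1 to 3, against 2.56, 2.92 and 2.30 FPKM in WT replicates 1 to 3. Its groups did not overlap (log2 fold change -0.30, SE 0.10, 95% interval -0.53 to -0.078, limma adjusted p = 0.284). Mgll, which cleaves monoglycerides and ends endocannabinoid signalling in brain, had 194, 256 and 229 FPKM in cKO replicates 1 to 3, against 177, 171 and 195 FPKM in WT replicates 1 to 3. The lowest cKO library, replicate 1, was just below the highest WT library, replicate 3 (log2 fold change 0.31, SE 0.10, 95% interval 0.078 to 0.55, limma adjusted p = 0.289).

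Among elongation partners Hacd2, a dehydratase of the elongation cycle, had 23.6, 26.8 and 25.5 FPKM in cKO replicates 1 to 3, against 20.1, 21.3 and 20.2 FPKM in WT replicates 1 to 3. For Hacd2, whose groups did not overlap, the log2 fold change was 0.28, SE 0.064, 95% interval 0.14 to 0.43, limma adjusted p = 0.204. It passed with library weights (limma adjusted p = 0.0344), where 129 of all tested genes passed. Over the alternatives with at least 2 libraries in each group its limma adjusted p was 0.0344 to 0.474. Elovl7, an elongase of saturated chains, was low at 1.68, 2.31 and 1.97 FPKM in cKO replicates 1 to 3, against 3.11, 3.77 and 2.61 FPKM in WT replicates 1 to 3. For Elovl7 the log2 fold change was -0.48, SE 0.13, 95% interval -0.77 to -0.18, limma adjusted p = 0.235. Scd4, the heart-type desaturase, was near the filter at 1.55, 1.25 and 1.06 FPKM in cKO replicates 1 to 3, against 0.72, 0.89 and 0.67 FPKM in WT replicates 1 to 3. For Scd4 the log2 fold change was 0.37, SE 0.12, 95% interval 0.10 to 0.65, limma adjusted p = 0.284. Groups did not overlap for these genes: Hacd2 and Scd4 were higher and Elovl7 was lower in cKO, short of the threshold. Among oxidation genes Mmut, the mutase that ends propionate breakdown, had 32.6, 33.8 and 35.4 FPKM in cKO replicates 1 to 3, against 29.9, 27.3 and 29.8 FPKM in WT replicates 1 to 3. Every cKO library was above every WT library (log2 fold change 0.22, SE 0.061, 95% interval 0.08 to 0.36, limma adjusted p = 0.238). Acad11, a dehydrogenase of long chains, had 23.97, 25.5 and 24.2 FPKM in cKO replicates 1 to 3, against 22.8, 20.4 and 21.3 FPKM in WT replicates 1 to 3. Again the groups did not overlap, cKO being higher (log2 fold change 0.19, SE 0.062, 95% interval 0.044 to 0.33, limma adjusted p = 0.294).

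Regulators of the pathway did not pass either. Srebf1, the factor that drives lipogenic genes, had 198, 267 and 247 FPKM in cKO replicates 1 to 3, against 218, 203 and 219 FPKM in WT replicates 1 to 3. Its cKO replicate 1 was the lowest of all libraries and cKO replicates 2 and 3 were the highest (log2 fold change 0.14, SE 0.11, 95% interval -0.10 to 0.39, limma adjusted p = 0.641). Ppara, the receptor that induces oxidation genes, was scarce, at 2.81, 2.73 and 2.55 FPKM in cKO replicates 1 to 3, against 2.23, 2.39 and 2.47 FPKM in WT replicates 1 to 3. Every cKO value was above every WT value (log2 fold change 0.14, SE 0.086, 95% interval -0.06 to 0.33, limma adjusted p = 0.565). Ppard, the prevalent PPAR of these cultures, had 17.4, 17.6 and 17.7 FPKM in cKO replicates 1 to 3, against 17.6, 16.8 and 16.7 FPKM in WT replicates 1 to 3. Its values overlapped (log2 fold change 0.042, SE 0.055, 95% interval -0.084 to 0.17, limma adjusted p = 0.813). Pparg, the adipogenic receptor, did not exceed 0.16 FPKM in any library.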

How the data were processed

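The authors deposited 1 table of FPKM values, with a column per library, per the file headers. Per the submitters' processing notes Bowtie2 and the builds GRCm38 and mm10 were used; neither their roles nor the counting tool, annotation and filters are given in these sources. FPKM carries no read totals, so precision rests on the spread between libraries. Summed FPKM per library was 409565 to 424768.

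Here 11596 of 14327 genes, those averaging 1 FPKM or more, were analysed as log2(FPKM + 1), a scale that understates changes of low genes. limma 3.58.1 (R 4.3.3; lmFit, then eBayes with a trend) gave two-sided p-values, which were adjusted by Benjamini and Hochberg's method across these genes; the threshold was 0.05. Exact permutation tests were used for single values. The code was tested on simulated data. Members and lists were chosen with earlier results of these data known. Values per library are given for the members of lowest p in each role (up to 5, or 3 in roles of under 7 genes), for 6 family pairs, for the 8 other pathway genes of lowest p, and for Srebf1, Ppara, Ppard and Slc22a17. Acsl3, Mlxipl, Hadh, Fabp7, Pparg and the libraries remarked on fall outside this rule and were chosen after their values were seen. Promoters and positions come from RefSeq (GRCm38.p6), where 14317 gene identifiers were found, and shared stretches from GENCODE transcripts. Alternatives were a pseudocount of 0.1, no filter, quantile normalization, library weights, a replicate block, each library left out in turn, and WT replicate 3 as the sole WT library. Figures were drawn with matplotlib 3.10.9.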

Additional observations from a re-analysis of the deposited data

How the results depend on the processing

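Of the 43 members 1 (Acsl6) passed with library weights and 0 under the other alternatives. Over all genes 3 passed in the comparison as reported, 129 with library weights, 22 with the replicate number as a block, 0 without a filter or with quantile normalization, and 0 to 10 when 1 library was left out. Against WT replicate 3 alone, where only the cKO libraries give a spread, 0 passed, which says nothing about stability. Deviations from the group means of same-numbered libraries had correlations of -0.043, 0.30 and 0.26 for replicates 1 to 3. For differently numbered libraries of the 2 groups the correlations were -0.40 to 0.17. For each gene the deviations within a group cancel out, so positive values for some pairs of libraries bring negative ones for others. These correlations therefore cannot settle whether same-numbered libraries were paired. The labels' numbers were not taken as pairs in the comparison as reported, but a pairing of same-numbered libraries remains possible. With 1 library left out the median over the members was 0.0014 to 0.071 and that of synthesis 0.043 to 0.12. The median log2 fold change of synthesis moved to 0.16 and that of desaturation and elongation to 0.14 against WT replicate 3 alone; with 1 library left out the median of desaturation and elongation ranged over 0.078 to 0.14, and that of activation and binding over -0.010 to 0.069. Signs were the same under all 12 alternatives for 20 members and turned at least once for 23, in 53 of 516 values, none of them past the threshold. With library weights they turned for Acsl3 (-0.081), Acot1 (0.016), Cpt1c (-0.0065), Cpt2 (-0.044), Acads (0.0084) and Plin2 (0.060). With quantile normalization they turned for Scd2 (-0.086), Acot7 (0.0091), Acads (0.0053) and Plin2 (0.014). Against WT replicate 3 alone they turned for Elovl1 (-0.031), Elovl2 (-0.051), Eci2 (0.022), Decr1 (-0.022) and Etfb (-0.052). Leaving out 1 library gave -0.042 to 0.058 for Acly, -0.021 to 0.059 for Acaca, -0.089 to 0.14 for Elovl2, -0.12 to 0.0091 for Elovl6, -0.030 to 0.063 for Acsl1, -0.057 to 0.14 for Acsl3, -0.12 to 0.32 for Fabp3, -0.10 to 0.10 for Acot1, -0.12 to 0.069 for Acot7, -0.058 to 0.086 for Cpt2, -0.094 to 0.074 for Crat, -0.031 to 0.022 for Acads, -0.015 to 0.13 for Hadh, -0.033 to 0.10 for Echs1, -0.21 to 0.017 for Eci2, -0.046 to 0.057 for Decr1, -0.11 to 0.026 for Etfa, -0.028 to 0.20 for Etfb, -0.052 to 0.064 for Etfdh and -0.047 to 0.032 for Plin2. Of the members whose sign held, values moved over 1.5 times for some: leaving out 1 library gave 0.043 to 0.12 for Fasn, 0.050 to 0.17 for Acss2, 0.11 to 0.42 for Thrsp, 0.061 to 0.17 for Scd1, -0.31 to -0.11 for Fabp5, -0.28 to -0.055 for Acsl5, -0.25 to -0.056 for Acadl, -0.13 to -0.0026 for Acadvl, -0.18 to -0.048 for Eci1, 0.046 to 0.15 for Hadhb and 0.036 to 0.21 for Pnpla2. Leaving out 1 library also gave 0.014 to 0.14 for Acot2, -0.11 to -0.024 for Cpt1a, 0.019 to 0.12 for Acadm and 0.0087 to 0.079 for Hadha. Over the 12 alternatives Lipe ranged from 0.028 to 0.14. The cause of these moves was not tested.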
